A study of Rattus norvegicus with 16 samples.

Results

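Mx1, Oasl and Ubd are 3 interferon-induced genes of the 32552 rat genes counted at the interface between an implant and the abdominal wall. They were selected on measured values: the day 3 comparison of implants in these same libraries had placed Mx1 among the higher genes. All 3 were chosen with the comparisons of implants on both days known. Every comparison is therefore given for the 3 genes as a description without a test. Oasl and Ubd were located through the gene symbols in the part of the study's gene list used here, which covers 2007 genes. All 3 passed the filter on low counts in every comparison.

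Interferons are secreted by cells that sense foreign or misplaced nucleic acids, and by activated T and NK cells. Type I interferons and interferon-gamma bind separate receptors and induce overlapping sets of genes. Mx1 encodes a dynamin-like GTPase that blocks viruses inside the cell and is induced mainly by type I and type III interferons. Oasl encodes a relative of the 2′-5′ oligoadenylate synthetases that carries ubiquitin-like domains. Ubd encodes FAT10, a ubiquitin-like modifier that marks proteins for the proteasome and is induced by interferon-gamma together with tumour necrosis factor.

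Bulk RNA sequencing covered 16 libraries from the abdominal wall of Sprague Dawley rats aged 12 weeks. There were 4 for each kind of implant, adhesive or non-adhesive, on day 3 and again on day 14 post-implantation. The sex given here is female, although the study's methods name female and male rats for its rat work, so it is not settled. The adhesive implant is a polyurethane mock device with an adhesive layer of poly(acrylic acid) N-hydroxysuccinimide ester and poly(vinyl alcohol). The non-adhesive implant is the same device after its layer was swollen overnight in phosphate-buffered saline, and it was held by sutures, so suturing is part of every comparison of implants. No uninjured abdominal wall and no sutured adhesive implant was analysed here. The day labels of the libraries are 3 and 14, although day 17 appears in the text of the series and day 10 in the protocol of RNA extraction. The sources do not tie each library to a rat of its own, and p values therefore reflect only library-to-library spread, which may be technical.

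Library totals were 18616084 to 24858976 counts on day 3 and 13852126 to 16801635 on day 14, without overlap, so that day, depth and any batch of the day cannot be told apart. Muscle transcripts, which mark the labelled tissue, were abundant in all libraries. The sum over Mb, Mybph and Eno3 was 1196 to 5480 CPM (read counts relative to library size) on day 3 and 8319 to 21930 CPM on day 14. Non-adhesive replicate 4 of day 14 stood apart from its group. It had 214 CPM over 18 leukocyte markers against 675 to 945 CPM in the other 3, and 21930 CPM over the muscle markers against 8319 to 9230 CPM. The log2 fold changes of the 3 genes that use it are given with and without it, while medians, means, ratios and correlations include it.

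In the annotation of the counts Mx1 (ENSRNOG00000001959) lies on the minus strand of chr11:37891156-37914983 and Oasl (ENSRNOG00000001187) on the minus strand of chr12:47444104-47456894. Ubd (ENSRNOG00000000768) is annotated on the minus strand of chr20:1876173-1897814. The build behind these positions was not settled, since the study names mRatBN7.2 and the submitters' processing notes name GRCm38, a mouse build. The Ubd model spans 21642 bases against 1952 bases in RefSeq on GRCr8, and 2 further genes overlap it, both with 0 counts in all libraries. Mx2, the paralog of Mx1 (ENSRNOG00000001963), lies on the plus strand of chr11:38035450-38059950 and may share reads with Mx1.

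The promoter windows of the 3 genes are shown because the levels of Mx1 and Oasl were correlated across the libraries of each day. Ubd was correlated with them on day 3 and weakly or not on day 14. Even on day 3, adhesive replicate 2 was highest of its group in Mx1 and Oasl and lowest in Ubd. The window of Oas1a, an oligoadenylate synthetase, is shown because it holds the interferon-stimulated response element (ISRE). Each window runs from 250 bases before to 50 bases after the RefSeq start on GRCr8, 5′ to 3′ on the strand of the gene. Capitals mark matches, on either strand, to the ISRE (GAAANNGAAA), to the gamma-activated site (TTCNNNGAA) or to the NF-kappaB motif. The windows are chr11:50294557-50294856 for Mx1 (minus), chr12:47356243-47356542 for Oasl (minus), chr20:1392636-1392935 for Ubd (minus) and chr12:41330216-41330515 for Oas1a (plus).
Mx1: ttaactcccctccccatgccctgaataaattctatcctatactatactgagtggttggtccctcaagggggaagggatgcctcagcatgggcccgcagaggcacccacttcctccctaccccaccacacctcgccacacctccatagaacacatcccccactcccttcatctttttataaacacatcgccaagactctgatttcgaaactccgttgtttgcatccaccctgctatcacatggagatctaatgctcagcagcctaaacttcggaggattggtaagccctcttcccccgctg
Oasl: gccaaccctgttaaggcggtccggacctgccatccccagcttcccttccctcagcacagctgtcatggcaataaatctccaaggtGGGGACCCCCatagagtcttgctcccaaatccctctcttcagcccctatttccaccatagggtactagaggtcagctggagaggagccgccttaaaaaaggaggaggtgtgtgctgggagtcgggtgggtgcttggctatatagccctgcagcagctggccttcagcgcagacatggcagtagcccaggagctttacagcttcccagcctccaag
Ubd: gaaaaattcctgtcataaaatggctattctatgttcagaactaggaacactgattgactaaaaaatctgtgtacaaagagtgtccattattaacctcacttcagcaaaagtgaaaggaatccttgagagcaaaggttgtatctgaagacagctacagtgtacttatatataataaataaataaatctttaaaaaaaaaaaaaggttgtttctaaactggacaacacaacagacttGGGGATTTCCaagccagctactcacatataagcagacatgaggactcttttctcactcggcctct
Oas1a: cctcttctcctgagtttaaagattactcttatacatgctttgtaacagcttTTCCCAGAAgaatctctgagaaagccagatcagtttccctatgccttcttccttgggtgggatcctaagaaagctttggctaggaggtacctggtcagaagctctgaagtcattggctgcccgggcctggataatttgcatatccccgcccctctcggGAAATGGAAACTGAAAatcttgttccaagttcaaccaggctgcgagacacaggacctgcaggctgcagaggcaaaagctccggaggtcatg

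The Oasl window held an NF-kappaB match at position -165 from the start and the Ubd window one at position -15. No ISRE or gamma-activated site was found in the windows of Mx1, Oasl or Ubd, which says only that these letters are not in these 300 bases. The Oas1a window held 2 overlapping ISRE matches, at -41 and -35, and a gamma-activated site at -199. Of all 33469 windows, 3.92% held the ISRE, 8.87% the gamma-activated site and 7.51% the NF-kappaB motif. Among the windows of the 133 listed interferon pathway genes that matched by symbol, 57 held the ISRE, 28 the gamma-activated site and 32 the NF-kappaB motif. Among the 23 windows of listed genes with a symbol in the data, 7 held the ISRE, 6 the gamma-activated site and 10 the NF-kappaB motif. A match of this kind is a description of the sequence.

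On day 3 post-implantation, Mx1 was high at all adhesive implants and varied at the non-adhesive ones. Levels are CPM scaled by the trimmed mean of M values (TMM) over all 16 libraries. At adhesive implants Mx1 stood at 249.8, 377, 136 and 195 CPM in replicates 1 to 4. At non-adhesive implants it stood at 47.8, 15.0, 101 and 18.7 CPM. The lowest adhesive library thus lay above the highest non-adhesive library, and non-adhesive replicates 1 and 3 lay above replicates 2 and 4. The log2 fold change of adhesive over non-adhesive implants was 2.39 (standard error 0.62), a ratio of 5.23. Of all genes tested on day 3, 1.4% had every adhesive library above every non-adhesive one, and the choice of Mx1 used this comparison.

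On day 14, the order of the implants turned for Mx1. The adhesive libraries had 8.87, 14.4, 12.6 and 19.8 CPM and the non-adhesive libraries 25.8, 35.0, 70.0 and 8.21 CPM. The 3 non-adhesive replicates 1 to 3 lay above all adhesive libraries, and replicate 4, the one poor in leukocyte markers, lay below them. The log2 fold change was -1.32 (standard error 0.55), and -1.65 without non-adhesive replicate 4. Without non-adhesive replicate 3, the highest library, it was -0.72. Between the days the median of Mx1 at adhesive implants went from 222 to 13.5 CPM without overlap, and at non-adhesive implants the medians were 33.2 and 30.4 CPM with overlap.

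By median, the groups stood in the order adhesive day 3, non-adhesive day 3, non-adhesive day 14 and adhesive day 14 for Mx1. Adhesive day 3 was separate from its neighbour, while the ranges of non-adhesive day 3 and non-adhesive day 14 overlapped, as did those of non-adhesive day 14 and adhesive day 14. Oasl stood in the same order, with medians of 64.8, 18.1, 8.60 and 5.01 CPM, and the ranges of all neighbours overlapped. Ubd stood in another order: adhesive day 3, adhesive day 14, non-adhesive day 14 and non-adhesive day 3, with medians of 9.08, 8.31, 2.22 and 2.04 CPM. For Ubd adhesive day 14 was separate from non-adhesive day 14, and the other neighbours overlapped.

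**Figure D1:**
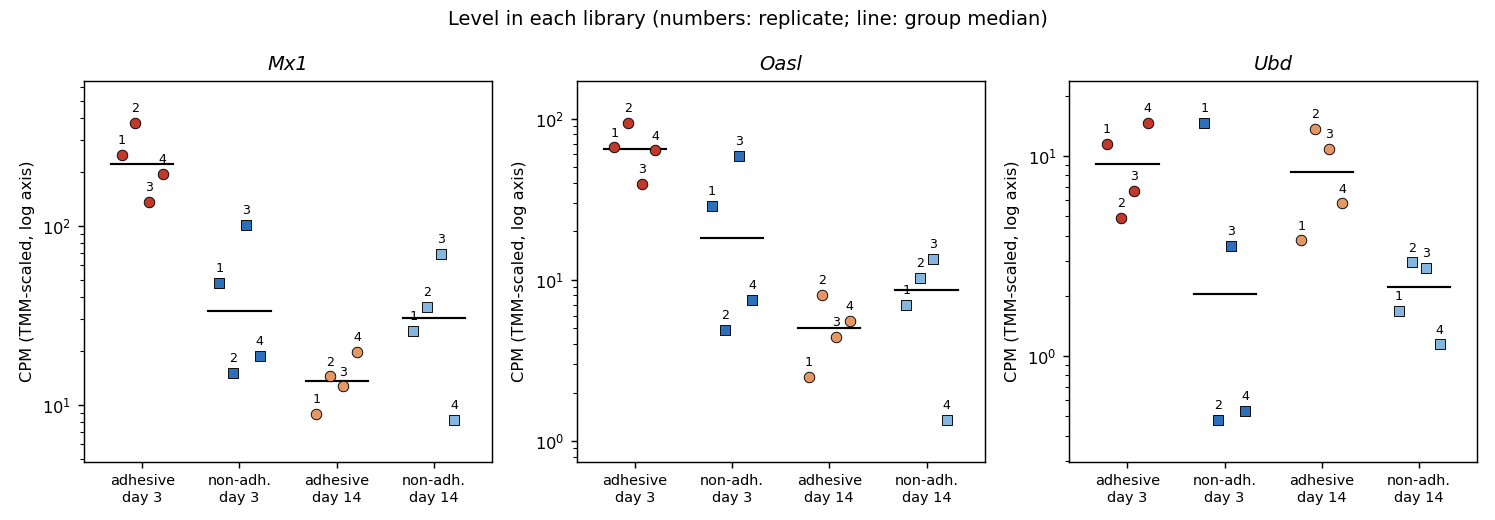
Level of Mx1, Oasl and Ubd in each of 16 libraries, in CPM on a log axis, on days 3 and 14, n = 4 libraries each, where circles are adhesive implants and squares non-adhesive ones. Numbers give the replicate and lines the group median. At adhesive implants Mx1 and Oasl lie lower on day 14 than on day 3 without overlap, whereas Ubd lies between 3.79 and 14.7 CPM at adhesive implants on both days.

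Oasl repeated the day 3 pattern of Mx1 with less separation. At adhesive implants it had 66.1, 94.2, 39.2 and 63.4 CPM, and at non-adhesive implants 28.6, 4.87, 58.9 and 7.47 CPM. Non-adhesive replicate 3 lay above adhesive replicate 3, so the groups overlapped, and non-adhesive replicates 1 and 3 were again the higher pair. The log2 fold change was 1.39 (standard error 0.71), and 2.25 without non-adhesive replicate 3. On day 14 Oasl had 2.49, 8.03, 4.45 and 5.57 CPM at adhesive and 6.95, 10.2, 13.4 and 1.35 CPM at non-adhesive implants. These groups overlapped, with non-adhesive replicate 4 below all others. The log2 fold change was -0.64 (standard error 0.60), and -0.98 without that library or -0.27 without non-adhesive replicate 3. The lowest Oasl value rests on 13 counts, with an exact 95% Poisson interval of 6.92 to 22.2 counts, which covers counting error only.

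Ubd differed from the other two in its course. On day 3 it had 11.4, 4.91, 6.70 and 14.7 CPM at adhesive implants and 14.6, 0.478, 3.56 and 0.531 CPM at non-adhesive implants. Non-adhesive replicate 1 stood level with the highest adhesive library and replicates 2 and 4 held 10 and 13 counts, so that this group spanned a ratio of 30.6. The day 3 log2 fold change of 0.94 (standard error 0.95) was 2.63 without non-adhesive replicate 1. On day 14 Ubd had 3.79, 13.6, 10.8 and 5.80 CPM at adhesive and 1.68, 2.94, 2.76 and 1.14 CPM at non-adhesive implants. The lowest adhesive library lay above the highest non-adhesive one, as in the libraries of 4.54% of the genes tested on day 14. The choice of Ubd was made with this comparison known. The log2 fold change was 1.99 (standard error 0.46) and 1.79 without non-adhesive replicate 4, whose Ubd value rests on 11 counts. The adhesive and non-adhesive groups held 35 to 180 and 11 to 45 counts, so the depth limits this ratio.

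The implant difference of Mx1 changed by -3.71 log2 units (standard error 0.89) from day 3 to day 14, that of Oasl by -2.04 (standard error 0.98) and that of Ubd by 1.03 (standard error 1.15). Without non-adhesive replicate 4 of day 14 the 3 values were -4.01, -2.35 and 0.87. Leaving out any 1 library gave -4.43 to -3.11 for Mx1 and -2.88 to -1.67 for Oasl, with the lowest values without non-adhesive replicate 3 of day 3 and the highest without non-adhesive replicate 3 of day 14. For Ubd this value was -0.61 without non-adhesive replicate 1 of day 3, so its direction rests on that library. The comparisons of implants on the 2 days and the comparisons of days share libraries in pairs.

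Between the days at adhesive implants, the log2 fold change of day 14 over day 3 was -4.10 (standard error 0.69) for Mx1, -3.66 (standard error 0.76) for Oasl and -0.15 (standard error 0.79) for Ubd. Mx1 and Oasl had all day 14 libraries below all day 3 libraries, as did 12.9% of the genes tested. At non-adhesive implants the values were -0.39 (standard error 0.61) for Mx1, -1.63 (standard error 0.70) for Oasl and -1.17 (standard error 0.84) for Ubd. The day 3 and day 14 libraries of all 3 genes overlapped there, where 8.92% of genes tested lay lower without overlap. Without non-adhesive replicate 3 of day 3 the Mx1 value was 0.30, and without replicate 1 the Ubd value was 0.43, so both directions rest on those libraries. The Oasl value was -0.82 without replicate 3 of day 3. Without non-adhesive replicate 4 of day 14 the values were -0.14, -1.36 and -1.07 for Mx1, Oasl and Ubd.

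Averaged over both implants, the day effect was -2.25 on the log2 scale (standard error 0.45) for Mx1, -2.64 (standard error 0.51) for Oasl and -0.66 (standard error 0.58) for Ubd. This average contains the adhesive libraries of day 3 that took part in the choice of the genes, so it is given without a test too.

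Per kilobase of exon as annotated, the order of the genes changed between groups. The exon length of Ubd comes from the long model described above, and which exons gave its counts was not seen, so its level per kb and its place in the order are uncertain. At adhesive implants on day 3 the mean was 72.2 ± 31.0 CPM per kb for Mx1, 23.9 ± 8.19 for Oasl and 7.91 ± 3.74 for Ubd (SD, n = 4). At adhesive implants on day 14 it was 4.20 ± 1.36 CPM per kb for Mx1, 1.87 ± 0.842 for Oasl and 7.13 ± 3.79 for Ubd (SD, n = 4). Ubd thus lay above Mx1 per kb in adhesive replicates 1, 2 and 3 of day 14 and below it in replicate 4. At non-adhesive implants on day 14 Mx1 averaged 10.5 ± 7.84 CPM per kb and Ubd 1.78 ± 0.722 (SD, n = 4), with Mx1 above Ubd in all 4 libraries.

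Within a library, Mx1 counts exceeded Oasl counts throughout. Mx1 counts per Oasl count ranged from 3.08 to 4.00 at adhesive day 3, 1.67 to 3.08 at non-adhesive day 3, 1.79 to 3.57 at adhesive day 14 and 3.42 to 6.08 at non-adhesive day 14. Ubd counts per 100 Mx1 counts ranged from 1.30 to 7.53 at adhesive day 3 and from 2.85 to 30.6 at non-adhesive day 3. On day 14 they ranged from 29.4 to 94.7 at adhesive and from 3.95 to 13.9 at non-adhesive implants, without overlap. Across all 16 libraries Pearson's r of log2 CPM (prior count 2) was 0.96 between Mx1 and Oasl, 0.41 between Mx1 and Ubd and 0.48 between Oasl and Ubd. Within day 3 (8 libraries) the last 2 were 0.75 and 0.82, and within day 14 they were -0.14 and 0.28. These values describe points that share libraries, depth and tissue makeup.

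**Figure D2:**
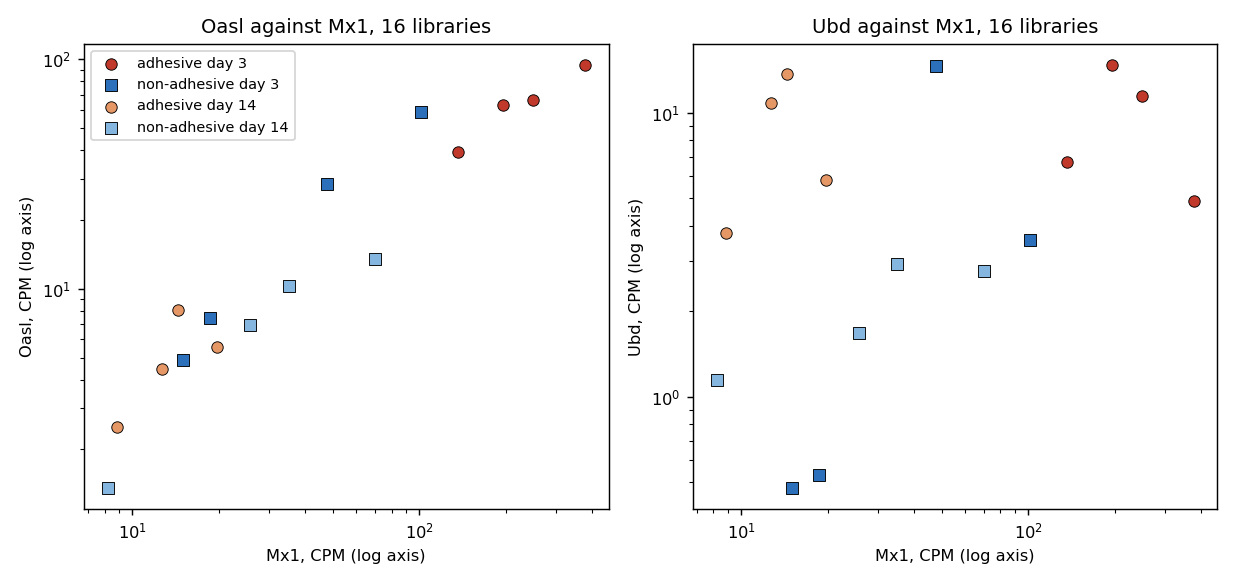
Oasl (left) and Ubd (right) against Mx1 in 16 libraries, in CPM on log axes, where adhesive implants are circles and non-adhesive ones squares. Oasl follows Mx1 over its whole range. The 4 adhesive libraries of day 14 combine low Mx1, at 8.87 to 19.8 CPM, with Ubd of 3.79 to 13.6 CPM.

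The genes whose levels ran most like Mx1 across the 16 libraries, by Pearson's r of log2 CPM among 13150 genes, were without a symbol at the first 5 ranks, with r of 0.96 to 0.97. Of these, ENSRNOG00000028814 at chr12:47469598-47482961 is annotated close to Oasl. Among genes with a symbol the closest were Oasl (0.96), Oas1a (0.94), Mx2 (0.91), RT1-S3 (0.91), a major histocompatibility class I gene, and Cd244 (0.89), an NK cell receptor. For Oasl they were Mx1 (0.96), the cap methyltransferase Cmtr1 (0.95), LOC100910270 (0.93), the RNA sensor Tlr7 (0.92) and the monocyte chemokine Ccl7 (0.91). For Ubd the values were lower, with Psen2 (0.84), a presenilin of the gamma-secretase complex, Diexf (0.82), Daglb (0.73), a diacylglycerol lipase, Trib1 (0.72), a pseudokinase, and Tm4sf19 (0.72). Mx1 ranked 1052nd among the genes most like Ubd and Oasl 501st.

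In the wider pathway, 9 lists of 166 interferon genes were counted, of which 27 had a symbol and none was a member. The lists were chosen with earlier results of these data known, which their p values do not allow for. On day 3 none of the 27 was called between implants by edgeR, and none by DESeq2. At an unadjusted p under 0.05 edgeR had 6 of the 27 and 1022 of 14223 genes. The calls over all genes were 0.0% with edgeR and 0.485% with DESeq2. Of the 27 log2 fold changes 21 were positive, with a median of 0.54 against -0.01 over all genes. The 6 negative ones included the antiviral gene Ifitm1 (-0.30). Mx2 stood at 2.08 (adjusted p = 0.631 from edgeR), Oas1a at 1.35 and Tlr7 at 0.96 (both with the same adjusted p), and Aim2, a cytosolic DNA sensor, at 0.99 (adjusted p = 0.596 from edgeR). Aim2 was the single list gene of the 27 with all adhesive libraries above all non-adhesive ones, against 1.4% of all genes.

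On day 14 none of the 27 was called between implants by edgeR or DESeq2, where 0.266% and 3.5% of all genes were. At an unadjusted p under 0.05 edgeR had 4 of the 27 and 2149 of 13557 genes. Of the 27 log2 fold changes 21 were negative, with a median of -0.295 against -0.04 over all genes. The 6 positive ones included Ifitm1 (0.60). Without non-adhesive replicate 4, edgeR called 6 of the 27 lower at adhesive implants, with 6.22% of all genes called lower. They were the sensors Tlr7 (-1.22) and Aim2 (-1.22), the guanylate-binding protein Gbp6 (-1.89), the secreted glycoprotein Lgals3bp (-1.26) and the class I genes RT1-N3 (-1.17) and RT1-S3 (-1.09), with adjusted p from 0.0041 to 0.0415. The library left out was singled out by its own marker levels, which these p values do not allow for. Without it the calls over all genes rose from 36 to 1151. For the change of the implant effect between days, 0.00685% of genes were called by edgeR and 0.171% by DESeq2, and of the 27 DESeq2 called RT1-S3 (-2.03, adjusted p = 0.0485) and edgeR none. At an unadjusted p under 0.05 edgeR had 10 of the 27 and 692 of 14601 genes for this change.

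Genes were called where the adjusted p was 0.05 or lower and the log2 difference was 1 or more in size. The limit from the choice of the lists holds for the day effects too. At adhesive implants 10 of the 27 list genes were called lower on day 14 by edgeR, with 3.73% of all genes called lower, and none was called higher, with 4.39% of all genes called higher. The antiviral genes among them were Mx2, at -3.82 (adjusted p = 0.00604), Oas1a, at -2.65 (adjusted p = 0.00908), and Lgals3bp, at -1.85 (adjusted p = 0.037). The others were the sensor Tlr7 (-2.28), the signal inhibitor Socs1 (-2.50), the GTPase Ifi47 (-1.79), Ccl7 (-2.83), the peptide transporter Tap1 (-1.67), RT1-S3 (-1.68) and RT1-N3 (-1.38). The median over the 27 was -1.17 against -0.01 over all genes, and 16 of them had all day 14 libraries below all day 3 libraries, as had 12.9% of all genes. Without adhesive replicate 2 of day 3, or replicate 1, 3 or 4 of day 14, the 10 became 4, and without replicate 4 of day 3 they became 5. In these fits the calls over all genes also dropped, from 1186 to between 462 and 767. Trim25 (-1.12), the immunoproteasome subunit Psmb9 (-1.17), Gbp6 (-1.63) and Aim2 (-1.23) did not pass edgeR. Positive values were seen for 6 of the 27, among them Ifitm1 (0.72), which did not pass either.

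At non-adhesive implants 2 of the 27 were called lower by edgeR, with 3.75% of all genes called lower. They were Ccl7 (-3.01, adjusted p = 0.0127) and Sqstm1 (-1.0, adjusted p = 0.00844), an autophagy receptor that binds ubiquitin. None was called higher, with 5.32% of all genes called higher, and 3 of the 27 had all day 14 libraries below all day 3 libraries, a share near the 8.92% of all genes. The 2 became 1 without non-adhesive replicate 2 or 3 of day 3, or without replicate 1, 2 or 3 of day 14. The median over the 27 was 0.01 against 0.04 over all genes. Averaged over both implants, 8 of the 27 were called lower and 3 higher by edgeR, where 5.03% of the 14601 genes tested were called lower and 7.51% higher, and 5 were lower without non-adhesive replicate 1 of day 3. The higher 3 were the class II genes RT1-Ba (1.80) and RT1-DOb (1.93) and the cytokine Il15 (1.31). DESeq2 called 15, 5 and 11 of the 27 in either direction for the day effect at adhesive implants, at non-adhesive implants and on average, where it called 11.3%, 11.6% and 13.2% of all genes. Whether the day effects of the list genes differ between implants is what the change of the implant effect tests, with the result given above.

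**Figure D3:**
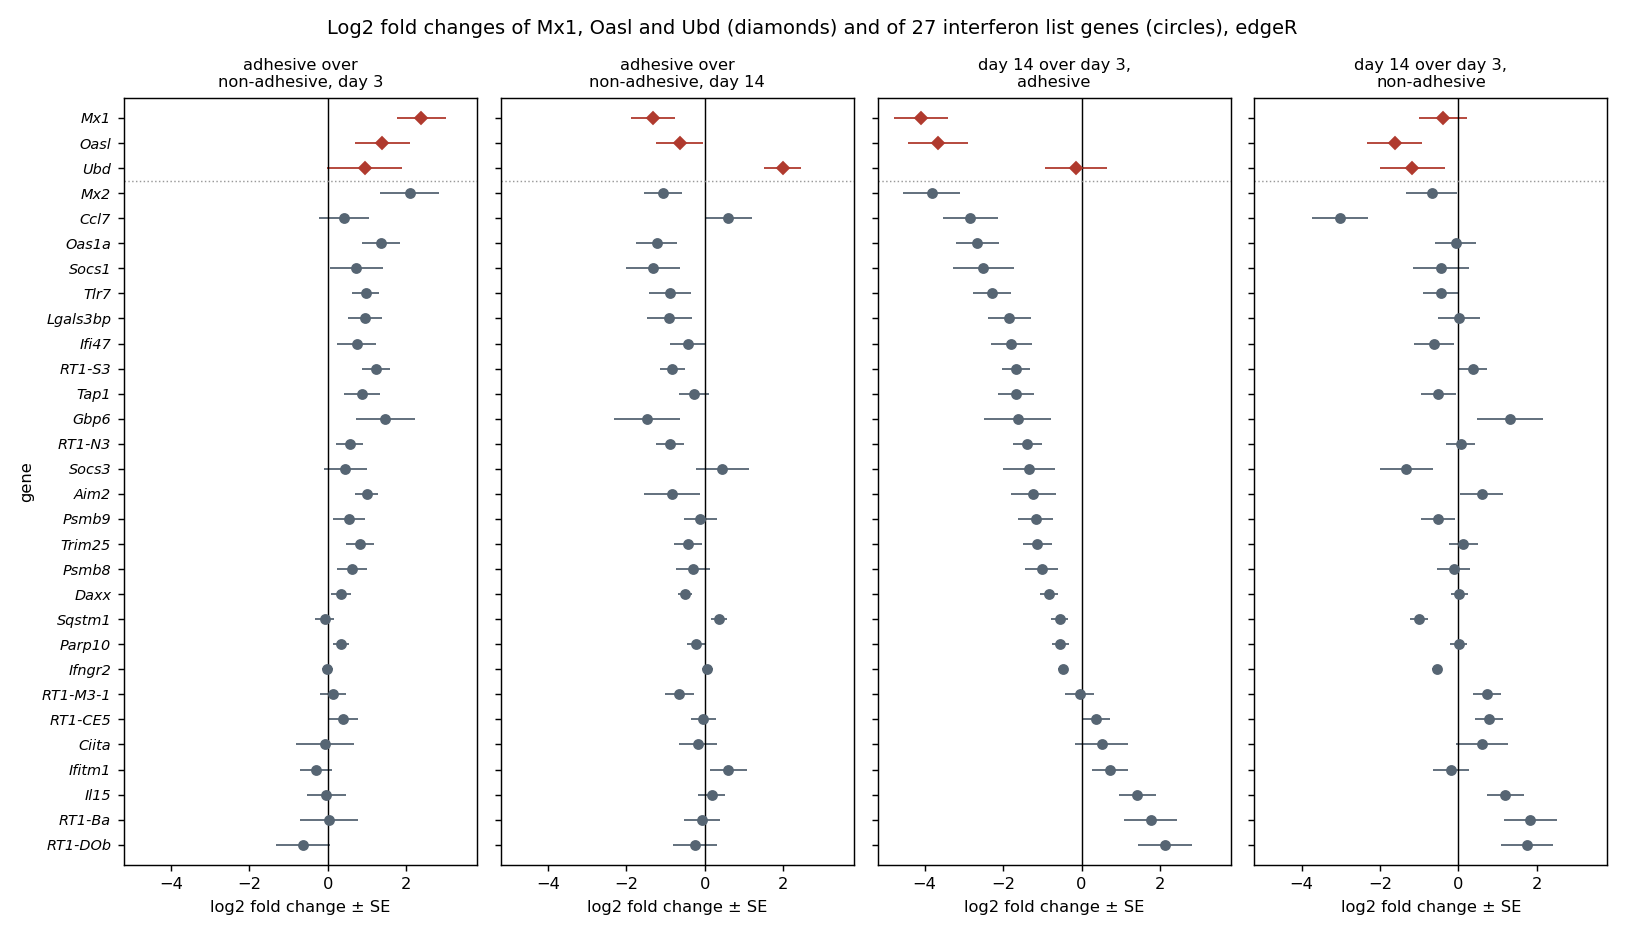
Log2 fold changes with standard errors from edgeR for Mx1, Oasl and Ubd (diamonds) and for 27 interferon list genes (circles) in 4 comparisons, ordered by the day effect at adhesive implants. Mx1, Oasl and Mx2 lie at -3.66 to -4.10 in the day effect at adhesive implants, and Ubd at 1.99 is the gene farthest to the right on day 14. The genes shown as diamonds were chosen with the comparisons of implants known, so their places are a description.

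In bulk tissue, fewer cells that express a gene and less RNA of it per cell cannot be told apart. Leukocyte markers overlapped between implants: the sum over 18 markers was 501 to 1041 CPM at adhesive and 368 to 801 CPM at non-adhesive implants on day 3, and 382 to 724 against 214 to 945 CPM on day 14. The medians of this sum turned between the days, from 877 against 662 CPM on day 3 to 603 against 716 CPM on day 14. Only listed markers with a symbol entered the sum, such as 5 of 13 macrophage and dendritic cell markers. The 3 of 9 neutrophil markers were the chemokines Cxcl1, Cxcl2 and Cxcl6. At most 1 of the 18 was at 0 in any library. Of the T and NK cell markers, Cd247, Prf1, Cd244 and Ncr3 summed to 11.0 to 47.0 CPM at adhesive and 4.64 to 19.7 CPM at non-adhesive implants on day 3. Their day 14 sums ran from 9.30 to 14.1 CPM for adhesive and from 4.26 to 28.4 CPM for non-adhesive implants. The order of the medians turned, from 26.3 against 10.3 CPM on day 3 to 10.2 against 17.1 CPM. Cd244 was the largest part of the day 3 sum under adhesive implants, with a mean of 20.3 CPM. Prf1, Ncr3 and Cd247 had means of 3.03, 3.20 and 1.07 CPM there. Under non-adhesive implants on day 3, Cd244 averaged 6.53 CPM and Ncr3 3.19 CPM. The log2 fold changes between implants were positive for all 4 markers on day 3, with Ncr3 at 0.01. They were negative for all 4 on day 14, and none was called on either day. The muscle markers on day 14 had a median of 15960 CPM under adhesive implants against 8872 CPM under non-adhesive ones. At non-adhesive implants on day 3 the leukocyte sums were 761, 368, 562 and 801 CPM in replicates 1 to 4, so that replicate 2 was lowest in both leukocyte markers and the 3 genes and replicate 4 was highest in the markers and low in the genes. The part of cell makeup in the differences was not tested.

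Counts of the 3 genes per count of Ptprc, which encodes the leukocyte antigen CD45, were computed after the data were seen. On day 3 Mx1 counts per Ptprc count were 2.90, 2.23, 1.70 and 1.23 at adhesive and 0.428, 0.447, 1.62 and 0.231 at non-adhesive implants. The groups overlapped in 1 library on each side. The mean log2 difference was 1.89 for Mx1, 1.18 for Oasl and 1.36 for Ubd on day 3, and -1.10, -0.44 and 1.83 on day 14. On day 14 Ubd counts per Ptprc count ranged from 0.0895 to 0.154 at adhesive and 0.0122 to 0.0692 at non-adhesive implants, without overlap.

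**Figure D4:**
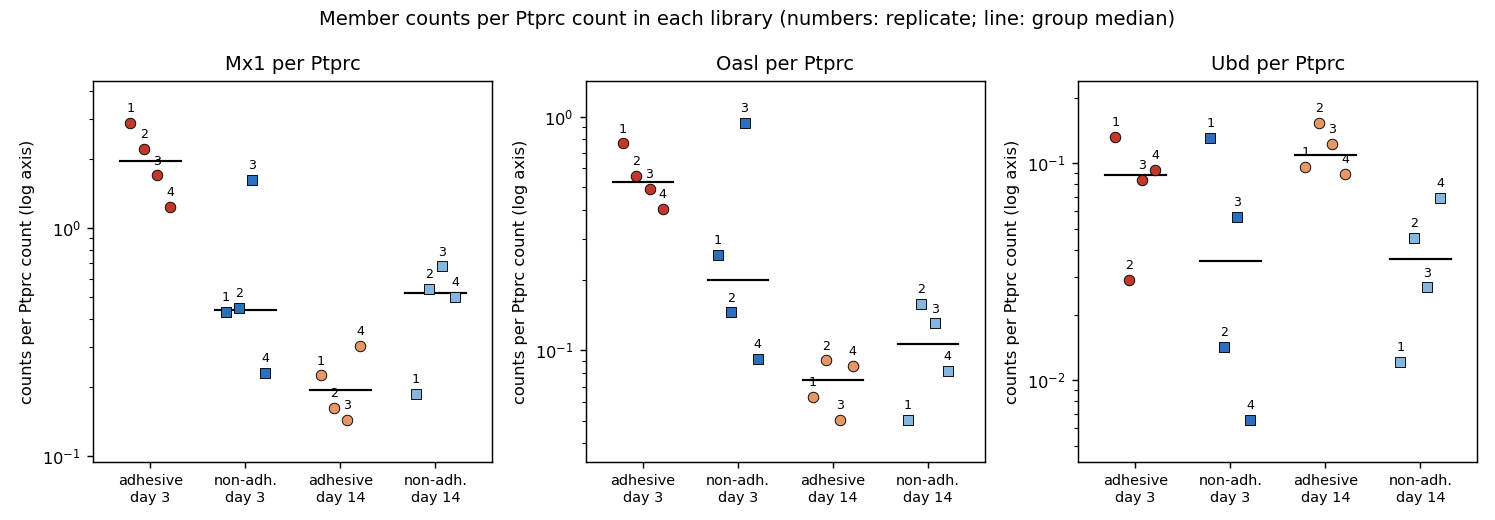
Counts of Mx1, Oasl and Ubd per count of Ptprc in each of 16 libraries on a log axis, where circles are adhesive implants and squares non-adhesive ones, n = 4 libraries a group. Numbers give the replicate and lines the group median. On day 14 the lowest adhesive library has 0.0895 Ubd counts per Ptprc count, above the highest non-adhesive library at 0.0692.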

How the data were processed

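Per the labels and the study's methods, the authors used bcl2fastq 2.17 for demultiplexing, FastQC for read quality, Cutadapt for adaptor removal, STAR for alignment and featureCounts for counting. The files were deposited as raw counts, 1 whole number for each gene. The library kit does not mark strand, so reads of a gene and an antisense partner cannot be told apart. Symbols came from the shortened copy of the study's gene list used here. The study's own fold changes and p values were not used. The 3 genes and all gene lists were chosen with earlier results of these data known. Promoter sequences are from RefSeq.

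Low counts were removed by filterByExpr and libraries scaled by TMM. The main test was the quasi-likelihood test of edgeR 4.0.16 (robust, two-sided, R 4.3.3), adjusted over all genes by Benjamini-Hochberg. Each day was fitted alone for the implants and all 16 libraries together otherwise. DESeq2 1.42.0, which the study used, its size factors in edgeR, no filter, a replicate block, 1 fit of all libraries, Mx1 and Mx2 summed, and leaving out each library were alternatives; scaling by Ptprc was added after seeing the data. List genes named were called in any comparison or among the 4 highest of their list, and not every gene that met this rule was named. Likeness took the 5 highest r among genes of at least 1 CPM. Every pair of replicates differed beyond counting noise (smallest chi-square per degree of freedom 16.9). The pairs among non-adhesive replicates 1 to 3 of day 14 stood lowest, at 16.9 to 17.68, and their pairs with replicate 4 at 198.5 to 215.3. Pairs in the other groups ran from 27.47 to 241.9. The day 14 fit without replicate 4 thus uses non-adhesive libraries that were more alike than those of the other groups.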

Additional observations from a re-analysis of the deposited data

Results flagged for a closer look

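In groups of 4 libraries, 7 of 120 gene and group combinations had 1 library far from the other 3 by Dixon's test, a rule that flags about 1 in 20 groups by chance. No value of Mx1, Oasl or Ubd was among them. At non-adhesive implants on day 3, Mx2 stood at 182 CPM in replicate 3 against 20.8 to 34.7 CPM in the others, the library in which Mx1 was also highest, and Il15 at 20.7 CPM in replicate 2 against 5.18 to 7.06 CPM. At adhesive implants, Ccl7 stood at 54.3 CPM in replicate 2 of day 14 against 10.6 to 14.4 CPM, and RT1-Ba at 88.9 CPM in replicate 4 of day 3 against 8.71 to 21.1 CPM. Non-adhesive replicate 4 of day 14, the library poor in leukocyte markers, had Parp10 at 14.8 CPM against 26.9 to 28.8 CPM, RT1-N3 at 6.86 CPM against 21.7 to 22.9 CPM and Sqstm1 at 786 CPM against 557 to 567 CPM.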

How the results depend on the processing

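Among the recomputed values, 419 stayed within the spread or within 1.5 times the count, 21 moved further and 8 changed sign. Without single libraries, the implant effect on day 3 ranged from 2.07 to 3.13 for Mx1, 1.05 to 2.25 for Oasl and 0.57 to 2.63 for Ubd (log2), and on day 14 from -1.65 to -0.72, -0.985 to -0.27 and 1.66 to 2.22. List genes called lower on day 14 ranged from 0 to 6. The change of the implant effect ranged from -0.61 to 1.43 for Ubd. In the day effect at adhesive implants Ubd ranged from -0.47 to 0.13, and 0 to 1 list genes were called higher and 4 to 10 lower. The 4 came without adhesive replicate 2 of day 3 or replicates 1, 3 or 4 of day 14, and 5 without replicate 4 of day 3. At non-adhesive implants Mx1 ranged from -0.99 to 0.30 and Ubd from -1.61 to 0.43, with 0 to 2 list genes called higher and 1 to 2 lower. Averaged over implants Ubd ranged from -0.90 to 0.12, turning without non-adhesive replicate 1 of day 3, and 5 to 9 list genes were lower. The cause was not tested.

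DESeq2 called 1 list gene lower for the change of the implant effect and 3 higher in the day effect at adhesive and 3 at non-adhesive implants, against 0 by edgeR. Between libraries of the same replicate number and day, the correlation of deviations from the group mean ran from -0.34 to 0.48. Pairs of unlike numbers were not compared, so whether the replicate numbers pair the libraries was not settled. With the replicate block within day, the change of the Ubd implant effect was -0.0463, and with the replicate block the day 3 implant effects were 2.75, 2.01 and 1.98 for Mx1, Oasl and Ubd. All genes called on day 14 numbered 36 in edgeR, 475 in DESeq2, 216 in 1 fit of all libraries, 0 with the replicate block and 1151 without non-adhesive replicate 4, and 1 to 28 without any other single library. On day 3 they numbered 0 in edgeR and 69 in DESeq2, and for the change of the implant effect 1 and 25. Low counts limit Ubd, at 10 to 512 counts a library.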

Other observations

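Markers of several cell types differed between the days. At adhesive implants edgeR called Cd244 (log2 fold change -2.52), the macrophage marker Aif1 (-1.32) and the chemokine Cxcl1 (-2.54) lower on day 14. It called the muscle genes Mb (3.02) and Eno3 (2.63) and the matrix gene Dpt (1.71) higher. Of all genes 3.73% were called lower and 4.39% higher there. The other T and NK cell markers, Cd247 (0.51), Prf1 (0.21) and Ncr3 (-0.46), did not pass there. Nor did the macrophage markers Cybb (-0.20), Cd80 (-0.27) and Ncf1 (0.05), or the chemokines Cxcl2 (0.71) and Cxcl6 (-2.20). Dpt was the only gene called of 10 fibroblast and matrix markers, of which 7 were positive and 3 negative. At non-adhesive implants edgeR called Cd247 (2.63), Eno3 (2.79), Dpt (2.27), Eln (2.15) and Cthrc1 (1.87) higher, with 5.32% of all genes called higher. Lower were Cxcl6 (-2.54) and Tnfrsf13b (-1.61), with 3.75% of all genes called lower, while Cd244 stood at -0.43. Of 10 fibroblast and matrix markers with a symbol, all 10 had negative log2 fold changes of adhesive over non-adhesive implants on both days, with medians of -1.03 on day 3 and -1.54 on day 14. This list was chosen with earlier results of these data known, so the shared sign is a description and no test. Of the 10, 5 had an unadjusted p under 0.05 from edgeR on each day. Over all genes these were 1022 of 14223 on day 3 and 2149 of 13557 on day 14. EdgeR called 0 of the 10 on day 3 and 1 on day 14, with 0.0% and 0.266% of all genes called. DESeq2 called 2 and 4 of them, with 0.485% and 3.5% of all genes called. The part of these markers in the values of Mx1, Oasl and Ubd was not tested.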
